A study of Mus musculus with 17 samples.

Results

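The mammary tumors compared here were 4 labelled adenoma, adenocarcinoma or adenomyoepithelioma, called gland-forming here, and 9 labelled solid carcinoma. They were among 17 tumors profiled from CUX1 transgenic mice. The gland-forming tumors were 1 adenoma (p110-98), 1 adenocarcinoma (p75-216) and 2 adenomyoepitheliomas (p75-90 and p110-374), grouped for this comparison by those labels alone. The solid carcinomas were p75-129, p75-150, p75-534, p110-121, p110-143, p110-225, p110-314, p110-360 and p110-416. The remaining 4 tumors were adenosquamous carcinomas and stayed out of the fit. Every mouse was of the FVB strain and carried 1 of 2 CUX1 transgenes driven by mouse mammary tumor virus (MMTV) regulatory sequences, which are active mainly in mammary epithelium. CUX1 is a homeodomain transcription factor, and the p75 and p110 transgenes encode shorter isoforms of it. Tumor names give the isoform and the mouse, so each tumor came from a different animal. Both isoforms were present in both groups, 2 p75 and 2 p110 tumors among the gland-forming and 3 p75 and 6 p110 tumors among the solid carcinomas. No normal mammary gland and no tumor without a transgene was in the comparison, and animal ages were not given in the sources used here. Epithelial tumor cells were captured from frozen sections by laser microdissection, and their RNA was amplified and hybridized together with amplified universal mouse reference RNA to 2-color oligonucleotide arrays, with the dyes swapped between arrays.

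The mammary epithelium has an inner luminal layer, marked by keratins 8 and 18, and an outer basal or myoepithelial layer, marked by keratins 5 and 14 and by smooth muscle proteins. In late pregnancy and lactation the luminal alveolar cells turn on the milk protein genes under prolactin and STAT5, together with genes for the uptake and synthesis of milk fat. Adenomas and adenocarcinomas keep tubules with a lumen, adenomyoepitheliomas contain both layers, and solid carcinomas grow as sheets without lumina. The comparison therefore asked which genes separated tumors with gland-forming labels from those labelled solid carcinoma. Architecture was known only from these labels. Among the gland-forming tumors only the adenocarcinoma p75-216 was labelled a carcinoma, while every comparison tumor was. Glandular architecture and the carcinoma label therefore cannot be told apart here. Values below are log2 ratios of tumor over reference signal, 1 per tumor and gene, and a difference is the mean of the gland-forming tumors minus the mean of the solid carcinomas on that log2 scale. A gene is called measured in a tumor when its probe was well above background in the tumor color on every array of that tumor. A ratio near 0 for a gene that was not measured is no level.

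The solid carcinoma p110-121 stood apart from its label. Its log2 ratio was -4.24 for Krt8 and -4.82 for Krt18, against 0.83 to 2.37 and -0.04 to 1.85 in the other 8 solid carcinomas. Its ratio was 0.07 for Elf5, a transcription factor of luminal progenitors, which lay between 7.43 and 9.45 in the other 12 tumors. Only 8 of 24 luminal markers were measured in it, against 13 to 21 in the other solid carcinomas and 14 to 19 in the gland-forming tumors. The summed tumor signal of the 16 immune markers was 578000 in p110-121, against 64500 to 290000 in the other solid carcinomas and 31200 to 239000 in the gland-forming tumors, and Csf1r, the receptor of a macrophage growth factor, had a ratio of 5.32. Counts are therefore also given with p110-121 left out wherever they then differed, a choice made after seeing the data. The tumor color was weak against the reference in p110-98, p110-374 and p110-225, where the reference exceeded the tumor signal 11.8-fold, 11.2-fold and 8.34-fold at the 95th percentile of spots, against at most 4.02-fold elsewhere. Probes measured in a tumor made up 18.2% to 36.9% in the gland-forming tumors and 22.2% to 61.8% in the solid carcinomas, and the number of arrays, 2 or 4 per tumor, limited the precision. All p75 tumors were scanned in another year than the p110 tumors, and effects of year and of transgene cannot be told apart.

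**Figure D1:**
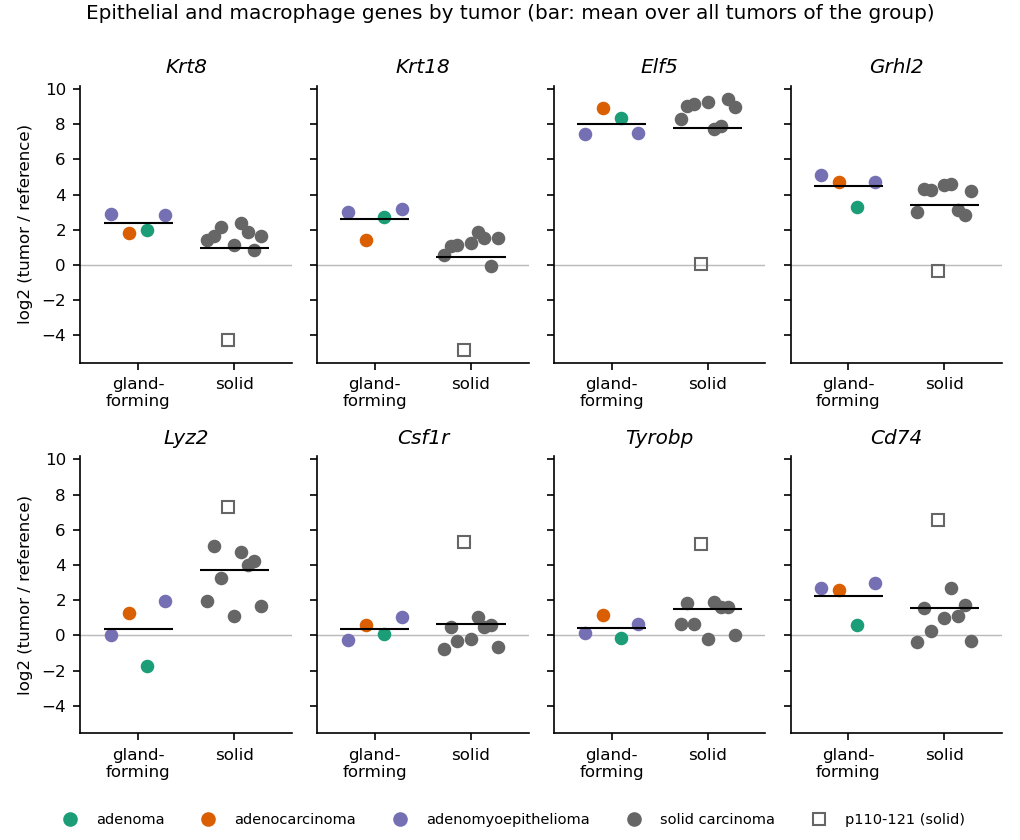
Log2 ratio of tumor over reference (vertical axis) for luminal keratins Krt8 and Krt18, epithelial transcription factors Elf5 and Grhl2, and macrophage and antigen presentation genes Lyz2, Csf1r, Tyrobp and Cd74 in the 4 gland-forming tumors and the 9 solid carcinomas. Dots are tumors colored by histological label, the open square is p110-121 and the bar is the group mean. The square lies below all other tumors for Krt8, Krt18, Elf5 and Grhl2 and above all of them for the other 4 genes.

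The groups differed significantly at few genes. Of 28784 genes, 1 was higher in the gland-forming tumors (0.00347% of genes) and 0 were lower (0%) at an adjusted p under 0.05 in limma, while 1589 were higher (5.52%) and 740 lower (2.57%) at an unadjusted p under 0.05. With p110-121 left out, 8 genes were higher (0.0278%) and 11 lower (0.0382%), again by limma with an adjusted p under 0.05. Median centering of the arrays in place of loess called 1 higher and 7 lower genes, 7 of them among those 19, and the scanner software's processed signals called 3 higher and 16 lower, 10 of them among those 19. The median difference over all genes was 0.01, and it was -0.0656 with median centering. Of 32 named genes with a positive difference in 13 tumors, that centering reduced 19 to under 2/3 of it and changed the sign of 8. Of 38 named genes with a negative difference, 0 were reduced that far and 16 grew over 1.5 times. The same counts were not made over all genes. The transgene by group interaction passed the threshold for 0 genes in limma after adjustment and for 1257 at an unadjusted p under 0.05.

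The profile correlations were computed over 4682 genes measured in all 13 tumors, each centered on its mean. The mean Pearson correlation across genes was 0.0157 among gland-forming tumors, -0.143 between gland-forming tumors and solid carcinomas, and -0.0201 among solid carcinomas. The difference of 0.159 was not significant (exact two-sided permutation test over 715 splits of the tumors, p = 0.2), and it was 0.212 without p110-121 (exact permutation p = 0.101). With the transgene as a block it was 0.367 (exact permutation test over the 280 splits within transgenes, p = 0.0357), so its call depended on whether tumors were compared within a transgene. The adenoma p110-98 and the adenomyoepithelioma p110-374 had a correlation of 0.51, and the 2 adenomyoepitheliomas had 0.361. The adenocarcinoma p75-216 had a correlation of 0.17 with p75-90 and of -0.46 and -0.45 with p110-98 and p110-374, and its closest tumor was the solid carcinoma p75-534 (0.409), which shared its slide. The closest tumor to p110-374 was the solid carcinoma p110-225 (0.775), another of the 3 tumors with a reference signal more than 8-fold above the tumor signal.

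**Figure D2:**
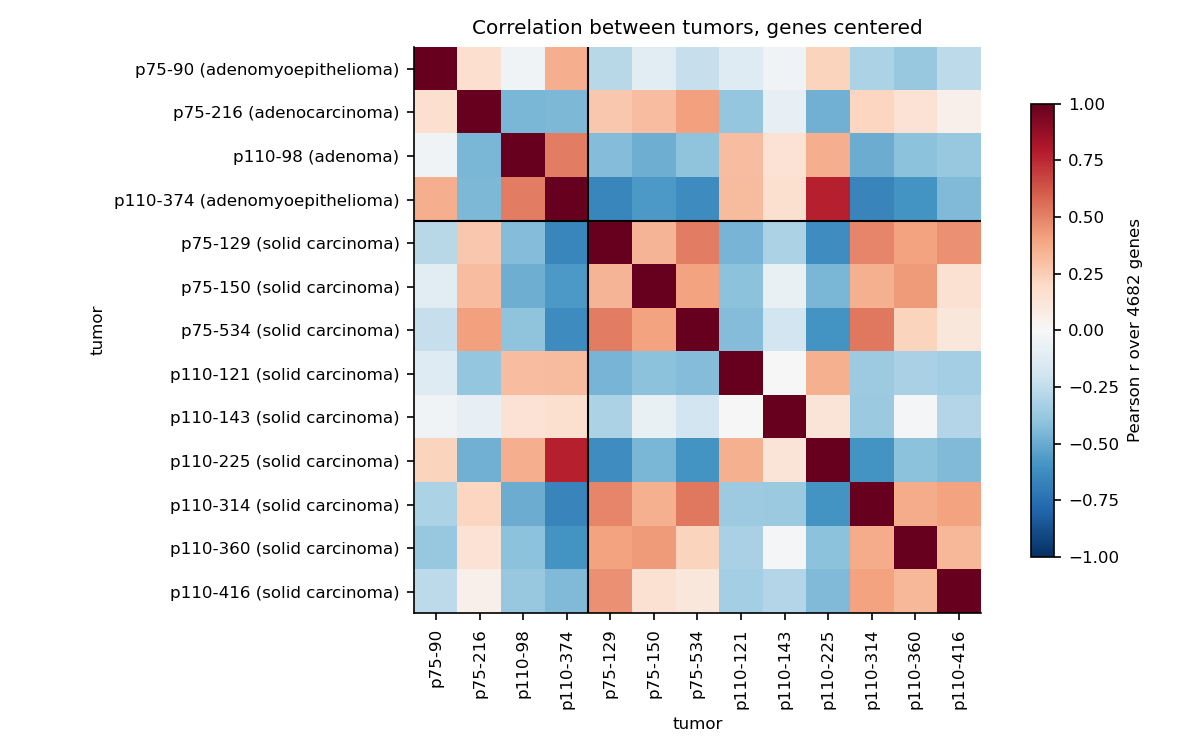
Pearson correlation across 4682 genes between each pair of the 13 tumors, with both axes listing the tumors and color giving the correlation. Likeness among the gland-forming tumors is uneven: p75-216 is negatively correlated with p110-98 and p110-374 (-0.46 and -0.45), and p110-374 is closest to the solid carcinoma p110-225 (0.775).

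The casein genes Csn2 and Csn1s2a had the largest differences of all genes tested, with and without p110-121. Neither gene was measured in p75-90 and p110-98, so the sizes and their rank rest partly on values near background. Except for p110-121, every solid carcinoma had a high level of both genes, and every gland-forming tumor lay far below those levels. Of the 19 milk and alveolar secretion genes on the list, 11 were lower at an unadjusted p under 0.05 and 0 higher in the 13 tumors, against 2.57% and 5.52% of all genes, and 0 passed the adjusted threshold. Their median difference was -2.03, beside 0.01 over all genes. Without p110-121, 12 of the 19 were lower at an unadjusted p under 0.05 (3.43% of all genes) and 0 higher (6.74%), 3 passed the adjusted threshold, 8 did not overlap between the groups (0.375% of all genes in that direction), and the median was -2.26.

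The casein genes lie in a cluster on chromosome 5, and Wap and Glycam1 on other chromosomes. The promoters of 5 milk genes are shown because STAT5, the factor through which prolactin acts, binds the palindrome TTCNNNGAA, and these milk protein genes all had negative differences of more than 4 on the log2 scale without p110-121. The sequences are the 250 bases before the RefSeq transcription start in GRCm38.p6, written along the gene's strand with the palindrome in capitals (Csn2 chr5:87699426-87699675, minus strand, Csn1s1 chr5:87665958-87666207, plus strand, Glycam1 chr15:103565082-103565331, minus strand, Csn1s2a chr5:87774200-87774449, plus strand, Wap chr11:6638650-6638899, minus strand).
Csn2: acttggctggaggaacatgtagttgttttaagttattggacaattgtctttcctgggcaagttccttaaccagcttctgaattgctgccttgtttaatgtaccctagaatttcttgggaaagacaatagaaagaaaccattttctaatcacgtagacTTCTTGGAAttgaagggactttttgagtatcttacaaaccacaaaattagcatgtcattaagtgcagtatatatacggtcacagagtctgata
Csn1s1: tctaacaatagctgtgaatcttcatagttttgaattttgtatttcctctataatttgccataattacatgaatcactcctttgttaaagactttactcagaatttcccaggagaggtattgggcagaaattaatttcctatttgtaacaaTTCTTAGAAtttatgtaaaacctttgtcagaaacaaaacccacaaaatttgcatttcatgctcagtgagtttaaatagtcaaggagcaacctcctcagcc
Glycam1: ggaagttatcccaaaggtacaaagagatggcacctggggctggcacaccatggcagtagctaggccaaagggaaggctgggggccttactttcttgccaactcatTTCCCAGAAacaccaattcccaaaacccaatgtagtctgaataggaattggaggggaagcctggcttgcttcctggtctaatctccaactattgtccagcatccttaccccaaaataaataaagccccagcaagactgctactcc
Csn1s2a: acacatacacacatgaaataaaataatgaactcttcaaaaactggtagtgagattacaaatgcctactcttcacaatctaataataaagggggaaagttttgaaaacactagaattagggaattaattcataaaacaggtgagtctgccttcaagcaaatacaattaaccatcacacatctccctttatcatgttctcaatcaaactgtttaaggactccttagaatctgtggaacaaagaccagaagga
Wap: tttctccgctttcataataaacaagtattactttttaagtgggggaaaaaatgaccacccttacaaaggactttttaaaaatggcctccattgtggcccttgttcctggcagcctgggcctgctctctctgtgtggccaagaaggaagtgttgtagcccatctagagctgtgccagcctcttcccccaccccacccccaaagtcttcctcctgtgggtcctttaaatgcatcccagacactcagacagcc
The palindrome, which reads the same on both strands, began 93 bases before the start of Csn2, 100 before that of Csn1s1 and 145 before that of Glycam1, and it was not found in these windows of Csn1s2a and Wap. It occurred in 2306 of 32851 promoters of the same length (7.02%). Only 15 of the 19 list members had an entry, so a comparison of the list with all promoters is void, and 3 of those 15 held the palindrome. Promoters with and without the palindrome were therefore both among the genes with the largest differences, Csn2 and Csn1s2a.

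Csn2, which encodes beta-casein, separated the gland-forming tumors from all solid carcinomas except p110-121. Its probe lies on mm7 chromosome 5, bases 87629506 to 87629565. The log2 ratio was -0.10 in p75-90, 3.78 in p75-216, 0.10 in p110-98 and 1.72 in p110-374. It was measured in p75-216 and p110-374, on 4 of the 8 arrays of the group, and the values near 0 in p75-90 and p110-98 are no level. In the 8 solid carcinomas other than p110-121 it ran from 8.98 to 10.74 with a median of 10.22, and it was 0.03 in p110-121. The highest gland-forming tumor, the adenocarcinoma, thus lay more than 5 log2 units below the lowest of those 8 tumors. The mean was 1.38 ± 1.80 (SD, n = 4) in gland-forming tumors and 8.96 ± 3.41 (SD, n = 9) in solid carcinomas, which gives a difference of -7.58 with an SE of 1.74 and a 95% confidence interval of -11.37 to -3.79 (limma, adjusted p = 0.391). Without p110-121 the solid mean was 10.07 ± 0.66 (SD, n = 8) and the difference -8.70 with an SE of 0.65 (limma, adjusted p = 0.000922). Within the scan day shared by p75-216 and p75-534 the difference was -5.48, and within the day shared by p110-98, p110-374 and p110-360 it was -9.53. The 12-tumor difference was -8.14 without the 3 tumors with a weak tumor color (limma, adjusted p = 0.0396). The call without p110-121 held in 32 of 35 alternatives.

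Csn1s2a, another casein gene, followed the same pattern. Its log2 ratio was -0.06 in p75-90, 2.86 in p75-216, 1.0 in p110-98 and 2.85 in p110-374, and in the 8 solid carcinomas it ran from 7.96 to 11.01 with a median of 9.58. It was measured in p75-216 and p110-374 and had no level in p75-90 and p110-98, with 5 of the 8 arrays well above background. The groups did not overlap without p110-121, which had 0.02. The difference was -7.0 with an SE of 1.69 (limma, adjusted p = 0.421) in 13 tumors and -8.08 with an SE of 0.65 (limma, adjusted p = 0.000922) in 12. It was -7.41 and -7.38 within the 2 shared scan days, and the 12-tumor call held in 32 of 35 alternatives.

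Wap encodes whey acidic protein, the main whey protein of the mouse. Its log2 ratio was 0.40 in p75-90, 4.29 in p75-216, 2.57 in p110-98 and 4.85 in p110-374, against a range from 6.51 to 8.42 with a median of 8.10 in the 8 solid carcinomas. The gland-forming tumors were lower, but Wap was still measured in 3 of the 4. The difference without p110-121 was -4.81 with an SE of 0.72 (limma, adjusted p = 0.0467), and the call was lost in 27 of 35 alternatives. In all 13 tumors it was -3.95 with an SE of 1.42 (limma, adjusted p = 0.611).

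The other members were named after their values were seen. Csn1s1, the gene of alpha-S1-casein, varied within the gland-forming group, with 1.81 in p75-90, 3.85 in p75-216, 9.28 in p110-98 and 7.55 in p110-374, and the adenoma at that value lay inside the solid range, which ran from 9.09 to 11.59 with a median of 10.54. Its difference without p110-121 was -4.91 with an SE of 1.13 (limma, adjusted p = 0.305). Glycam1, a mucin-like whey protein under prolactin control, was not well above background in 3 gland-forming tumors (0.12, 0.08 and 0.14), while the adenomyoepithelioma p110-374 had 7.10, just under the lowest solid carcinoma other than p110-121 at 7.14. The milk genes were therefore not lost as a block in each tumor, since p110-98 had Csn1s1 within the solid range and p110-374 had Glycam1 just under it. Olah, the thioesterase that ends fatty acid synthesis early to give the medium chains of milk fat, was measured in 0 of the 4 gland-forming tumors and in 8 of the 9 solid carcinomas, so its level was at least 6.69-fold lower in the gland-forming tumors, or at least 8.88-fold without p110-121. Csn3, which encodes kappa-casein, had 0.60, 0.24, 0.16 and 0.35 in the gland-forming tumors in the same order, with 0 of 4 measured and 1 of 8 arrays well above background, and ran from 0.77 to 4.50 with a median of 1.97 in the 8 solid carcinomas (12-tumor difference -1.93, SE 0.63, limma adjusted p = 0.439). Cel, the bile salt-stimulated lipase of milk, had 0.70, 1.41, 1.20 and 2.53 against a range from 3.33 to 6.20 with a median of 4.23, and Lao1, a milk L-amino acid oxidase, had 0.02, 3.56, -0.08 and 2.10 against a range from 3.28 to 8.16 with a median of 6.97. Neither passed the adjusted threshold without p110-121 (limma, adjusted p = 0.0957 and 0.125).

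Not every alveolar gene was lower. Elf5 itself, which drives alveolar differentiation, had 7.43, 8.91, 8.32 and 7.48 in the gland-forming tumors and ran from 7.73 to 9.45 with a median of 9.0 in the 8 solid carcinomas, a difference without p110-121 of -0.69 with an SE of 0.39 (limma, adjusted p = 0.544). Stat5a was no exception and went with the milk genes, with a difference of -1.10 with an SE of 0.48 (limma, adjusted p = 0.611) in 13 tumors. Mfge8, a milk fat globule protein, had one of 0.17 with an SE of 0.98 in 13 tumors, and its sign turned without p110-121 (-0.42, SE 0.51). Prlr, the prolactin receptor, had the opposite sign to the milk genes, with 6.75, 4.40, 7.27 and 3.29 against from 0.03 to 5.49 with a median of 3.70 in the 9 solid carcinomas (difference 2.17, SE 1.0, limma adjusted p = 0.617). Ltf, the gene of lactoferrin, was split by transgene, since the p75 gland-forming tumors had 7.54 and 9.58 and the p110 ones 2.96 and 3.92, against a range from 6.77 to 8.91 with a median of 7.92 in the 8 solid carcinomas. That split follows the scan year and the weak tumor color as well, and their parts were not tested.

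**Figure D3:**
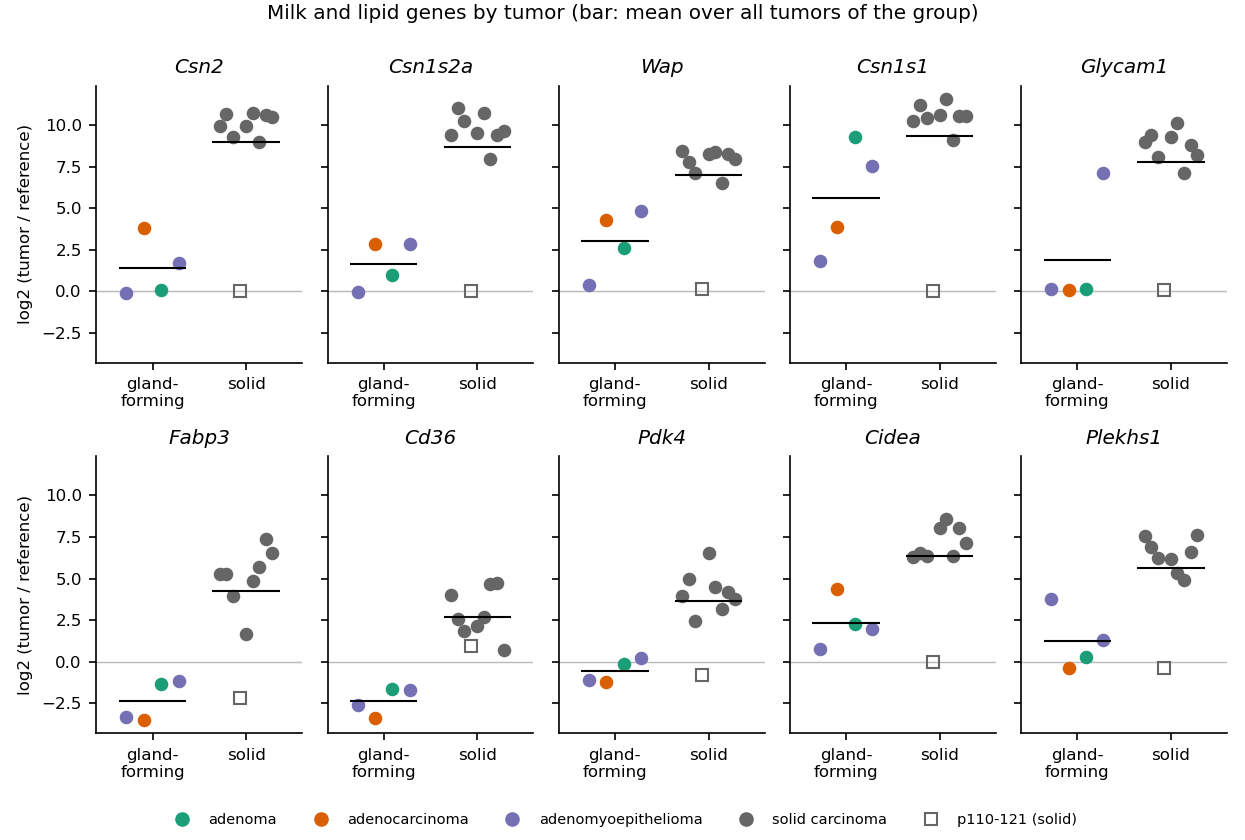
Log2 ratio of tumor over reference (vertical axis) for 10 genes of milk protein, milk fat and fatty acid handling in the gland-forming tumors and the solid carcinomas. Dots are tumors colored by histological label, the open square is p110-121 and the bar is the group mean over all tumors. For Csn2 the gland-forming tumors reach 3.78 and the 8 solid carcinomas other than p110-121 start at 8.98.

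**Figure D4:**
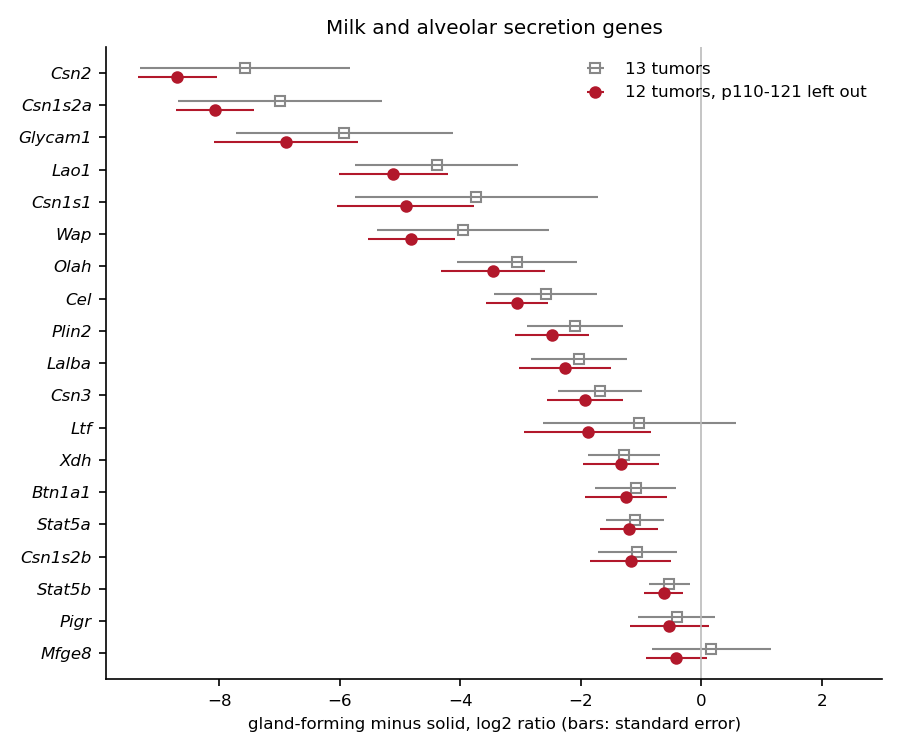
Difference of the log2 ratio, gland-forming minus solid (horizontal axis, bars are SE), for the 19 milk and alveolar secretion genes (vertical axis) in all 13 tumors and in the 12 without p110-121. The median moves from -2.03 to -2.26, and the SE of Csn2 falls from 1.74 to 0.65 when p110-121 is left out.

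Fabp3 had the next largest negative difference after the caseins Csn2 and Csn1s2a. Fabp3, a fatty acid binding protein of muscle and of lactating mammary epithelium, had a log2 ratio of -3.30 in p75-90, -3.53 in p75-216, -1.37 in p110-98 and -1.14 in p110-374. It was well above background on 2 of 8 arrays of these tumors, so the size of its difference rests on values near background. In the 8 solid carcinomas it ran from 1.70 to 7.39 with a median of 5.27, and in p110-121 it was -2.16. All gland-forming tumors lay below the reference and 8 of the 9 solid carcinomas above it. The difference was -6.62 with an SE of 1.46 (limma, adjusted p = 0.385) in 13 tumors and -7.42 with an SE of 0.92 (limma, adjusted p = 0.0255) in 12. It was -7.51 and -8.70 within the shared scan days, and the 12-tumor call was lost in 18 of 35 alternatives.

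Cd36, Pdk4, Cidea, Plekhs1 and Chrdl2 were named after their values were seen, as genes called lower with p110-121 left out, and they come from no list. Cd36, a membrane transporter of long-chain fatty acids, had -2.62 in p75-90, -3.39 in p75-216, -1.67 in p110-98 and -1.69 in p110-374, and it ran from 0.73 to 4.76 with a median of 2.58 in all 9 solid carcinomas. It was measured in 0 of the 4 gland-forming tumors, with 1 of 8 arrays well above background, and in all 9 solid carcinomas. The groups did not overlap even with p110-121 included. The differences therefore rest on values near background in the gland-forming tumors. The ratios gave a difference of -5.05 with an SE of 0.77 in 13 tumors (limma, adjusted p = 0.091) and -5.27 with an SE of 0.74 in 12 (limma, adjusted p = 0.0428). Cidea, a lipid droplet protein of lactating mammary cells and brown fat, had 0.79, 4.39, 2.26 and 1.98 in the gland-forming tumors in the same order and ran from 6.32 to 8.59 with a median of 6.83 in the 8 solid carcinomas (12-tumor difference -4.82, SE 0.65, limma adjusted p = 0.0369). Pdk4, a kinase that shuts off pyruvate dehydrogenase when fatty acids are burned, had -1.11, -1.23, -0.13 and 0.24 and ran from 2.48 to 6.53 with a median of 4.06 (12-tumor difference -4.75, SE 0.63, limma adjusted p = 0.0369). The gland-forming tumors lay wholly below the 8 solid carcinomas for both genes. Plekhs1, a pleckstrin homology domain protein, fell by 5.17 (SE 0.74, limma adjusted p = 0.0453), and Chrdl2, a chordin-like secreted protein, fell by 4.87 (SE 0.71, limma adjusted p = 0.0465) in the 12 tumors. Plekhs1 was measured in 2 and Chrdl2 in 1 of the 4 gland-forming tumors, on 6 and 2 of 8 arrays, so the size for Chrdl2 also rests on values near background. These calls without p110-121 were lost in 24 of 35 alternatives for Cd36, Plekhs1 and Chrdl2, in 21 for Cidea and in 19 for Pdk4. The other 2 lower calls were Esrrb, which was measured in 0 of 4 gland-forming tumors and 1 of 9 solid carcinomas and so had no level, and a probe without a gene name in the tables used here.

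Few genes of lipid synthesis itself were lower. Of 20 lipid synthesis genes, 1 was lower and 0 higher at an unadjusted p under 0.05, against 2.57% and 5.52% of all genes, and the median difference was -0.11. Without p110-121, 2 were lower and 1 higher (3.43% and 6.74% of all genes). The lower member in 13 tumors was Fasn, fatty acid synthase, with -0.26, -0.14, -0.23 and -0.64 in the gland-forming tumors and a range from 0.69 to 3.82 with a median of 2.34 in the 8 solid carcinomas. The groups did not overlap without p110-121, and the 12-tumor difference was -2.70 with an SE of 0.49 (limma, adjusted p = 0.142). Scd2, a stearoyl-CoA desaturase, had a difference of 1.54 (SE 0.72, limma adjusted p = 0.62). Ndrg1, a stress-induced gene on the hypoxia list, had -4.98, -2.90, -3.29 and -2.19 against a range from -1.59 to 0.14 with a median of -0.37 (12-tumor difference -2.79, SE 0.49, limma adjusted p = 0.118).

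Some markers of fat cells also had lower values in the gland-forming tumors. Of the 12 adipocyte markers, 3 to 5 were measured in the gland-forming tumors and 6 to 11 in the 8 solid carcinomas, with summed tumor signals of 2230 to 23800 and 12300 to 484000. Of these markers, 2 were lower at an unadjusted p under 0.05 (2.57% of all genes) and 0 higher (5.52%), with a median difference of -1.99. They were Lpl, which encodes lipoprotein lipase, with a difference of -3.75 (SE 1.15, limma adjusted p = 0.562), and Fabp4, the fatty acid binding protein of fat cells, with -4.47 (SE 1.38, limma adjusted p = 0.568). The median ratio over the list was 0.04 to 0.52 in the gland-forming tumors and 0.01 to 4.32 in the 8 solid carcinomas, so the solid carcinomas spread over the whole range. Lep, the gene of leptin, was measured in 0 of the 13 tumors. Capillary endothelium also expresses Cd36 and Fabp4. Of 12 endothelial markers, 2 to 8 were measured in the gland-forming tumors and 7 to 10 in the 8 solid carcinomas, with median ratios of 0.16 to 0.85 and 0.26 to 2.58. The summed signals were 8910 to 314000 and 4860 to 327000, where the highest gland-forming sum was that of p110-98, in which 2 of the 12 were measured. One of these was Esam, an adhesion molecule, with 4.65 in p110-98, 3.99 in p110-374 and 3.51 in p110-225, the tumors with a weak tumor color, so the sums do not compare vessels between the groups. The part of fat cells and vessels in the differences of Fabp3, Cd36, Cidea and Fabp4 was not tested. In a captured sample, fewer cells of a type and less RNA per cell cannot be told apart.

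Among the genes higher in the gland-forming tumors, Pcp4 was the only one past the adjusted threshold in all 13 tumors. It encodes a small protein that modulates calmodulin, and its probe lies on mm7 chromosome 16, bases 96907200 to 96907259. The log2 ratio was 6.97 in p75-90, 6.19 in p75-216, 7.19 in p110-98 and 9.40 in p110-374. In the 9 solid carcinomas it ran from 0.28 to 3.84 with a median of 1.41, so the lowest gland-forming tumor, the adenocarcinoma, lay more than 2 log2 units above the highest solid carcinoma, p110-143. The mean was 7.44 ± 1.38 (SD, n = 4) in gland-forming tumors against 1.50 ± 1.15 (SD, n = 9) in solid carcinomas, for a difference of 5.93 with an SE of 0.69 and a 95% confidence interval of 4.42 to 7.44 (limma, adjusted p = 0.049). Pcp4 was well above background on 8 of 8 gland-forming and 18 of 22 solid arrays. Its difference was 4.78 and 6.12 within the shared scan days. The call was lost in 21 of 36 alternatives, among them the transgene as a block (difference 6.01, limma adjusted p = 0.106) and leaving out the 3 tumors with a weak tumor color (4.96, limma adjusted p = 0.165). The difference kept its direction in all 36.

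Igfbp2, which binds insulin-like growth factors, and Dbp, a transcription factor driven by the circadian clock, were called with p110-121 left out. Igfbp2 had 1.39 in p75-90, 1.53 in p75-216, 1.15 in p110-98 and 1.0 in p110-374, all above the reference, while all 9 solid carcinomas lay below it, from -1.11 to -0.04 with a median of -0.35. Igfbp2 was well above background on 7 of 8 gland-forming and 17 of 22 solid arrays. Its difference was 1.77 with an SE of 0.24 (limma, adjusted p = 0.091) in 13 tumors and 1.82 with an SE of 0.24 (limma, adjusted p = 0.0369) in 12. Dbp had 0.71 in p75-90, 0.12 in p75-216, -0.17 in p110-98 and 1.34 in p110-374, against from -4.12 to -1.48 with a median of -2.31 in the 9 solid carcinomas. Its groups did not overlap, and the difference was 2.82 with an SE of 0.44 (limma, adjusted p = 0.0975) in 13 tumors and 2.60 with an SE of 0.31 (limma, adjusted p = 0.023) in 12. Within the shared scan days the differences were 2.49 and 1.82 for Igfbp2 and 2.83 and 2.09 for Dbp. Median centering reduced the 12-tumor differences to 0.93 for Igfbp2 and 1.20 for Dbp (limma, adjusted p = 0.425 and 0.441). The call without p110-121 was lost in 23 of 35 alternatives for Igfbp2 and in 12 of 35 for Dbp.

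Krt15, a keratin of basal epithelial cells, Timp3, an inhibitor of matrix metalloproteinases, and Proc, the precursor of anticoagulant protein C, had large differences that did not pass the adjusted threshold. Krt15 had 7.22 in p75-90, 5.55 in p75-216, 5.40 in p110-98 and 1.92 in p110-374 and ran from -0.90 to 2.28 with a median of -0.27 in the solid carcinomas (difference 4.89, SE 0.87, limma adjusted p = 0.259). Only p110-374 overlapped the solid range. Timp3 had 0.24 in p75-90, -0.74 in p75-216, 0.94 in p110-98 and 1.26 in p110-374 and ran from -4.12 to -0.65 with a median of -2.71 (difference 3.15, SE 0.56, limma adjusted p = 0.259), and its highest solid carcinoma was p110-225, which had a weak tumor color. Without p110-98, p110-374 and p110-225 the Timp3 difference was 2.73. Proc had 6.54 in p75-90, 2.73 in p75-216, 4.19 in p110-98 and 4.22 in p110-374 and ran from -0.42 to 2.90 with a median of 0.10 (difference 3.89, SE 0.71, limma adjusted p = 0.27). Krt15 was well above background on 12 and Proc on 16 of the 22 solid arrays. The sizes of these 2 differences therefore rest partly on values near background in the solid carcinomas. Of the smaller differences, Dctn3, a dynactin subunit, and Spata32 had 0.57 and 0.57, and both turned to -0.78 and -0.35 when arrays were centered on their median, so they have no settled direction. Vasp, an actin regulator, and Cxxc6, both called at 0.81 and 0.44 without p110-121 and named after their values were seen, also changed sign under that centering. The eighth called gene was a transcript, AK034700, which was measured in 1 of 4 gland-forming tumors and 2 of 9 solid carcinomas and so had no level in most tumors, and its call was lost in 29 of 34 alternatives.

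Among measured genes named through RefSeq, which leaves out Cd36, 8 negative differences had the lowest p without passing the threshold in 13 tumors. Beside Fabp3 and Csn2 they were smaller ones, of Syngr1, a synaptogyrin of secretory vesicles (-1.65), Tbc1d15, a Rab7 GTPase-activating protein (-1.48), Nme1, a nucleoside diphosphate kinase (-1.02), E2f6, a repressive E2F factor (-1.0), Fam117b (-0.82) and Litaf, a regulator of endosomal sorting (-0.74). Their adjusted p ran from 0.27 to 0.391 in limma.

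**Figure D5:**
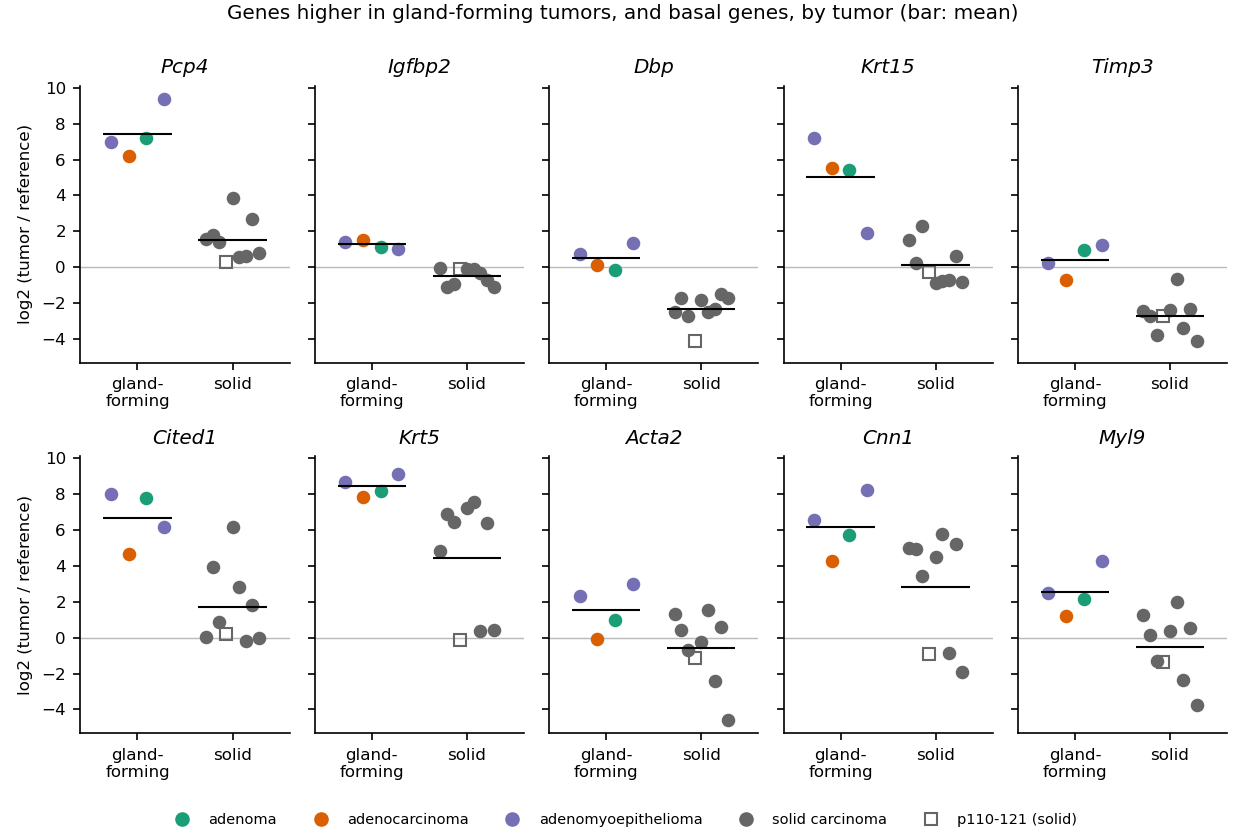
Log2 ratio of tumor over reference (vertical axis) for genes with higher values in the gland-forming tumors and for basal and myoepithelial markers. Dots are tumors colored by histological label, the open square is p110-121 and the bar is the group mean. For Pcp4 the gland-forming tumors start at 6.19 and the solid carcinomas reach 3.84, while for Acta2 and Cnn1 the adenomyoepitheliomas hold the 2 highest values.

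Luminal markers that are not milk genes had positive differences on the whole. Of 24 luminal markers, 6 were higher and 0 lower at an unadjusted p under 0.05 in 13 tumors, against 5.52% and 2.57% of all genes, and the median difference was 0.68. Without p110-121, 7 were higher and 2 lower (6.74% and 3.43% of all genes). Cited1, a transcriptional co-regulator of hormone-responsive luminal cells, had 8.02 in p75-90, 4.66 in p75-216, 7.80 in p110-98 and 6.16 in p110-374 and ran from -0.19 to 6.17 with a median of 0.85 in the solid carcinomas (difference 4.93, SE 1.17, limma adjusted p = 0.396). The 4 gland-forming tumors were all high, while the solid carcinomas spread from background to p110-143, which lay above the adenocarcinoma. Ly6d, a surface protein of luminal and squamous cells, had 5.72, 4.58, 2.71 and 5.10 against from -2.40 to 4.27 with a median of 0.88 (difference 3.78, SE 1.31, limma adjusted p = 0.6). Gata3, which maintains luminal fate, was named after its values were seen. It had 5.03, 1.23, 4.43 and 4.04 against from -1.07 to 3.02 with a median of 2.25 (difference 1.77, SE 0.79, limma adjusted p = 0.616). The adenocarcinoma was the lowest of the 4 and below most solid carcinomas. Kit, a listed marker also named after its values were seen, went the other way (difference -0.67, SE 0.92, limma adjusted p = 0.84). Kit was measured in 1 of the 4 gland-forming tumors. The difference for Krt18 depended on p110-121, at 2.14 with it and 1.48 without it, and that for Krt8 was 1.41 and 0.76. With median centering they were 0.685 for Krt18 and 0.0252 for Krt8 in 13 tumors. None of the 24 passed the adjusted threshold in either set of tumors.

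Basal and myoepithelial markers had positive differences on the whole. Of 23 basal markers, 4 were higher and 0 lower at an unadjusted p under 0.05, against 5.52% and 2.57% of all genes, with a median difference of 1.14, and 6 were higher and 1 lower without p110-121 (6.74% and 3.43%). None passed the adjusted threshold. One of the 6 was Dst, the gene of a hemidesmosome linker, with 3.05 in p110-98 and 2.87 in p110-374, tumors whose bright control spots had ratios of 5.46 and 4.8, against -0.57 to 3.55 in the other 11 tumors, and the part of the weak tumor color was not tested. Krt5, the basal keratin, had 8.70 in p75-90, 7.82 in p75-216, 8.17 in p110-98 and 9.11 in p110-374 and ran from -0.11 to 7.56 with a median of 6.41 in the 9 solid carcinomas. It was the only listed basal marker without overlap between the groups (difference 4.0, SE 1.60, limma adjusted p = 0.611), and 0.4% of all genes lacked overlap in that direction. Its partner Krt14 did not follow, with 3.56, 4.24, 1.99 and 3.41 against from -0.17 to 4.10 with a median of 2.67.

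The smooth muscle genes varied within the gland-forming group. Acta2, smooth muscle actin, had 2.34 and 2.99 in the adenomyoepitheliomas, 0.99 in the adenoma and -0.06 in the adenocarcinoma. Cnn1, calponin, had 6.53 and 8.23, then 5.73 and 4.27, and Myl9, a myosin light chain, had 2.51 and 4.27, then 2.17 and 1.19. Of the 8 smooth muscle genes on the list, 5 had both adenomyoepitheliomas above the adenoma and the adenoma above the adenocarcinoma. They were these 3, Mylk and Tagln. Myh11, Actg2 and Cald1 did not have this order, and each value rested on 1 tumor. Cald1 was well above background on 0 of the 8 gland-forming arrays. The share of all genes with this order was not counted, so the 5 of 8 cannot be set against a background. The adenoma and the p110 adenomyoepithelioma had a weak tumor color, whose part in this order was not tested. Among the solid carcinomas, p110-314 and p110-416 were low, with Krt5 at 0.36 and 0.45, Acta2 at -2.41 and -4.61, and Trp63, the basal transcription factor p63, at -1.14 and -1.54. The other solid carcinomas apart from p110-121 kept Krt5 between 4.85 and 7.56. Over the groups the difference was 3.04 for Myl9 (SE 0.97, limma adjusted p = 0.581), 1.29 for Mylk, myosin light chain kinase (SE 0.44, limma adjusted p = 0.586), and 2.14 for Acta2 (SE 1.04, limma adjusted p = 0.623). The 2 adenomyoepitheliomas came from mice with different transgenes and were scanned in different years.

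Few cell cycle genes passed even the unadjusted threshold. Of 25 mitosis genes 0 passed an unadjusted p under 0.05 in limma (median difference -0.26), and of 25 replication genes 1 was lower and 0 higher (median -0.06), against 2.57% of all genes lower and 5.52% higher. The lower one was Gins1, a subunit of the replicative helicase, with a difference of -0.91 (SE 0.38, limma adjusted p = 0.611). Ccnb2 and Ccna2, cyclins of mitosis and S phase, had -2.97, -1.13, -3.15 and -2.64 and -3.0, -1.50, -2.99 and -2.80 in the gland-forming tumors against from -2.78 to 0.71 with a median of -1.21 and from -3.29 to 0.08 with a median of -1.40 in the solid carcinomas. The adenocarcinoma lay near the solid median for both. The other 3 gland-forming tumors lay in the lower part of the solid range, except that p75-90 and p110-98 lay below it for Ccnb2. Mcm7, a helicase subunit, had a difference of -0.58 (SE 0.37, limma adjusted p = 0.671).

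Wnt genes were included because the study asked about the activity of this pathway in the tumors. Of 19 ligands, 3 were higher and 0 lower at an unadjusted p under 0.05, against 5.52% and 2.57% of all genes, and the median difference was 0.02. Without p110-121, 3 were higher and 1 lower (6.74% and 3.43%). Wnt6 had 0.40, 0.11, 0.66 and 1.20 against from -0.54 to 0.39 with a median of -0.24 (difference 0.77, SE 0.23, limma adjusted p = 0.525), but it turned to -0.36 with median centering. Wnt10a had -1.40, -1.69, -2.61 and -0.36 against from -5.58 to -0.93 with a median of -3.23 (difference 1.74, SE 0.77, limma adjusted p = 0.616), and both groups lay below the reference. The third, Wnt5a, was measured in 0 of the 13 tumors. Of 20 targets of the pathway, 1 was higher and 1 lower at an unadjusted p under 0.05 (median -0.07), against 5.52% and 2.57% of all genes. Myc was the lower one, with -0.73 (SE 0.31, limma adjusted p = 0.611). It was measured in 1 of 4 gland-forming tumors, and its difference was -1.55 within p75 and -0.101 within p110 tumors. Ccnd1, the gene of cyclin D1, had 1.18 (SE 0.63, limma adjusted p = 0.639).

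Genes of epithelial architecture were called at a share near that of all genes in 13 tumors. Of 25 junction and apical polarity genes on the array, 1 was lower and 0 higher at an unadjusted p under 0.05 (median -0.24), against 2.57% and 5.52% of all genes. Without p110-121, 5 of the 25 were lower and 0 higher (3.43% and 6.74% of all genes), 0 passed the adjusted threshold in limma, and the median was -0.365. Only 8 and 10 of the 25 were measured in p110-98 and p110-374, against 14 and 17 in the other gland-forming tumors and 10 to 24 in the 8 solid carcinomas, and the part of the weak tumor color was not tested. Pard6b, a polarity complex protein, had a difference of -0.65 (SE 0.33, limma adjusted p = 0.632), and Ovol1, an epithelial transcription factor, one of -0.96 (SE 0.54, limma adjusted p = 0.648). Of 11 genes that rise in epithelial to mesenchymal transition, 1 was higher and 0 lower (median 0.42), against 5.52% and 2.57% of all genes, or 2 and 0 without p110-121, with Zeb2 at -1.02 (SE 0.58, limma adjusted p = 0.649) and Snai2 at 1.14 (SE 0.86, limma adjusted p = 0.704), and Snai2 turned to -0.12 with median centering.

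Of 20 squamous markers, 4 were higher and 2 lower at an unadjusted p under 0.05 (median 0.06), against 5.52% and 2.57% of all genes. Flg, 1 of the 4, was measured in 0 of the 13 tumors. Sprr1a, a cornified envelope precursor, had 2.31, -2.74, -0.84 and 0.63 against from -3.74 to -1.38 with a median of -2.88 (difference 2.53, SE 0.74, limma adjusted p = 0.526), with the adenocarcinoma inside the solid range. Tgm1, a transglutaminase that crosslinks the envelope, went the other way, with 0.68, 1.96, 0.28 and 2.16 against from 1.61 to 4.34 with a median of 2.87 (difference -1.58, SE 0.53, limma adjusted p = 0.583). Of 20 interferon-stimulated genes, 2 were higher and 0 lower (median 0.34), against the same 5.52% and 2.57%. Usp18 and Ifit3, both induced by interferon, had 1.39 and 3.97 in the adenocarcinoma, the highest of the 13 tumors, and -0.34 and -1.03 in the adenoma. Neither gene was measured in the adenoma. Of 20 glycolysis and hypoxia genes, 3 were higher and 1, Ndrg1, was lower (median 0.04), against 5.52% and 2.57% of all genes, or 3 and 2 without p110-121 (6.74% and 3.43%). Slc2a1, the glucose transporter GLUT1, had -1.09, -0.88, -2.14 and -1.26 against from -3.15 to -1.52 with a median of -2.17 (difference 0.88, SE 0.31, limma adjusted p = 0.6), and it turned to -0.44 with median centering.

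Markers of stromal and blood cells overlapped between the groups. At an unadjusted p under 0.05, the threshold for each list that follows, 2.57% of all genes were lower and 5.52% higher. Of 12 endothelial markers 2 were lower and 0 higher (median -0.27). Kdr, the main VEGF receptor, had 0.61, 1.05, 0.08 and 0.35 against from 0.62 to 3.80 with a median of 2.43 (difference -1.84, SE 0.45, limma adjusted p = 0.421), and Emcn, endomucin, had 1.36, 3.73, -0.21 and 1.95 against from 1.65 to 5.85 with a median of 4.30 (difference -2.26, SE 0.77, limma adjusted p = 0.586). Kdr was measured in 1 and Emcn in 3 of the 4 gland-forming tumors. Of 16 immune markers 1 was lower, Lyz2, the lysozyme of macrophages, with 0.02, 1.27, -1.73 and 1.96 against from 1.09 to 7.29 with a median of 4.02 (difference -3.33, SE 1.07, limma adjusted p = 0.581, and -2.88 without p110-121), and Ptprc, the gene of CD45, had -1.26 (SE 0.71, limma adjusted p = 0.649). Of 15 fibroblast markers 1 was higher, Sparc, a matrix protein, with 1.38 (SE 0.51, limma adjusted p = 0.611) but 0.00318 with median centering, and Dcn, decorin, had 2.44 (SE 1.26, limma adjusted p = 0.635). Of 9 red blood cell and muscle markers 0 passed an unadjusted p under 0.05 in limma, with Hba-a1, an alpha-globin, at -1.52 (SE 0.79) and Alas2, a heme synthesis enzyme, at -0.92 (SE 0.67).

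Cux1, the gene from which the transgenes were made, showed no significant difference. Its log2 ratio was -1.58 in p75-90, -2.12 in p75-216, -1.31 in p110-98 and -0.74 in p110-374, and it ran from -2.03 to -0.48 with a median of -1.31 in the 9 solid carcinomas, a difference of -0.09 with an SE of 0.30 (limma, adjusted p = 0.947). The sign of that difference changed with the processing. The array probe does not tell transgene from endogenous transcript in the sources used here. Of 7 Cut family genes 0 passed an unadjusted p under 0.05 in limma (median -0.02), against 5.52% of all genes higher and 2.57% lower. Only 1 of the 7 was measured in at least 7 tumors.

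The 4 adenosquamous carcinomas, outside the comparison, set the milk genes in context. Csn2 was 7.76 in p75-47, 8.98 in p75-80 and 10.40 in p75-101, inside or near the range of the solid carcinomas, and 0.21 in p75-94. Pcp4 had 0.14, 1.84, 1.99 and -0.06 in the same order, and Fabp3 had 3.07, 2.98, 6.67 and -1.92. With these tumors as a further group in the fit, the 12-tumor difference of Csn2 stayed at -8.70 while its adjusted p was 0.0509 in limma, and that of Csn1s2a was -8.08 (limma, adjusted p = 0.028).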

How the data were processed

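The deposited scanner files held red and green intensity of 45018 spots on 38 arrays of 17 tumors, made by the authors with Feature Extraction 9.5.3.1 (probe coordinates mm7), and a deposited table of log2 ratios of tumor over reference, for which the submitters' processing notes name limma. Intensities were corrected with normexp (offset 50) and loess in limma 3.58.1 (R 4.3.3, statmod 1.5.0), oriented by the labelled dyes so that tumor stands over reference, and averaged per probe and tumor, without control spots and outlier spots (0.545%). These values and the table differed by at most 4.98e-08. The brightest of several probes stood for a gene, and 23075 of 41174 probes (56%) were named through RefSeq accessions, the rest keeping the file's name. The 13 tumors were compared with lmFit and eBayes, two-sided, with Benjamini-Hochberg adjustment over 28784 genes. P-values measure the spread between tumors of different mice. Two-sided exact permutation tests of 4 against 9 tumors cannot go below p = 0.0028. Of 344 members in 19 gene lists, 342 were on the array. Members and lists were chosen with earlier results of these data known. Named genes were, of each list, the 2 members with the lowest p among those measured in at least 7 tumors, the 8 rises and 8 falls called or of lowest p among measured RefSeq-named genes, and Cux1, Krt8, Krt18, Krt5, Krt14, Acta2, Trp63, Csn3 and Wap. A bound on a fold compares the brighter group with the lowest signal well above background. Alternatives changed background correction, normalization, probes, dyes, weights, blocks and tumors. The scripts were tested on simulated data. Figures were drawn with matplotlib 3.10.9 (Python 3.11.15).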

Additional observations from a re-analysis of the deposited data

Results flagged for a closer look

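Of 140 pairs of gene and group examined over 70 genes, 15 held 1 tumor with a log2 ratio far outside the others of its group by Dixon's test, which picks out about 1 in 20 groups by chance. The solid carcinoma p110-121 accounted for 10 of them. It was low for the luminal keratins Krt8 (-4.24) and Krt18 (-4.82) and for the milk genes Csn2 (0.0273), Csn1s2a (0.0189) and Wap (0.108). It was also low for Cidea (-0.0176), Plekhs1 (-0.369), Ndrg1 (-3.49) and Dbp (-4.12), and it was high for Spata32 (0.353). The adenocarcinoma p75-216 was high among the gland-forming tumors for Ccna2 (-1.5) and Usp18 (1.39). The solid carcinoma p110-314 was high for Ccnd1 (3.09) and Usp18 (1.25). The solid carcinoma p110-225 stood apart for Tbc1d15 (-1.43).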

How the results depend on the processing

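Genes called in all 13 tumors were few, so their numbers moved with most choices. The 1 higher and 0 lower genes became 0 and 1 with processed signals, 0 higher with median centering, 2 and 1 with the filter on dim probes, 0 higher with tumor in Cy5 alone and 3 with tumor in Cy3 alone, 9 and 1 with the tumor color without the reference, 2 higher with trend and robust estimation, 6 and 2 with quality weights, 0 higher with the transgene or the scan day as a block, 2 higher with all 17 tumors, 5 higher without p110-98 and p110-374, 6 higher without p110-225 as well, 0 higher with the share of probes measured as a covariate and 5 higher with the adenomyoepitheliomas alone. Leaving out 1 tumor at a time gave 0 to 8 higher and 0 to 11 lower genes, and p110-121 gave the highest of both. Slide as a random block, a fit that takes arrays as replicates and so overstates the evidence, gave 562 higher and 401 lower genes, and 824 and 658 without p110-121.

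Without p110-121, an alternative chosen after seeing the data, the 8 higher and 11 lower genes became 4 higher with no background correction, 3 higher with processed signals, 1 and 7 with median centering, 1 and 1 with scaled arrays, 3 and 18 with the filter on dim probes (13830 genes), 2 and 5 with Cy5 alone, 4 higher with Cy3 alone, 7 lower with the tumor color alone, 4 higher with trend and robust estimation, 3 and 3 with the transgene as a block, 1 and 0 within p75, 2 and 3 within p110, 5 and 6 with all 17 tumors, 5 and 5 without p110-98 and p110-374, 4 lower without p110-225 as well, 0 and 2 with the share of probes measured as a covariate, 4 lower with the adenomyoepitheliomas alone, and 1 and 4 with the adenoma and adenocarcinoma alone. Where only 1 direction is given, the other stayed within 1.5 times its count. Leaving out 1 more tumor gave 1 to 11 higher and 2 to 11 lower genes. Likeness was 0.0276 to 0.468 with 1 tumor left out and 0.367 with the transgene as a block.

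Median centering reversed Wnt6 (-0.355), Snai2 (-0.12), Slc2a1 (-0.435), Dctn3 (-0.779), Spata32 (-0.349), Krt14 (-0.102), Cxxc6 (-0.475) and Vasp (-0.0934), and without p110-121 Spata32 (-0.343), Cxxc6 (-0.505), Vasp (-0.124) and Dctn3 (-0.821). Alas2 reversed within p75 (0.285) and without the 3 weak tumors (0.00781). Cux1 reversed with scaled arrays (0.482), mean of probes (0.0199), Cy5 alone (0.0722), within p110 (0.3), slide as a block (0.0123), the adenomyoepitheliomas alone (0.192), without p75-216 (0.142) and without p110-416 (0.0225), with a range of -0.32 to 0.142 over single tumors left out, and its lowest value was -1.27, with median centering. The cause was not tested. No paired analysis was possible because each tumor came from a different animal, while scan day and slide entered as blocks above. Weak tumor colors and the few tumors limit what could be seen: a gene well above background on no array of a group had a bound or no level there, and one on few arrays a ratio near background.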
